A study of Arabidopsis thaliana with 10 samples.

Results

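QQS (Qua-Quine Starch, AT3G30720) and 9 genes of starch synthesis and breakdown were followed in whole Arabidopsis seedlings of 5 genotypes. The 10 genes were taken by locus from the 33557 genes of each expression table. They were chosen by starch function and by their FPKM differences between genotypes in these same libraries, so the values of these 10 genes are given as a description, without tests. Tests are given only for 48 other starch genes and for 7 genes of a QQS partner and of DNA methylation. These lists were also drawn up with earlier results of these data known, so their counts and p-values are not independent of these libraries.

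The libraries came from the Columbia (Col-0) accession, with 2 biological replicates of each genotype. CRY2oe is labelled as an overexpressor line of the blue light receptor CRY2, and cry2-1 as a CRY2 mutant. The ubp12ubp13 line is labelled as a double mutant of the deubiquitinases UBP12 and UBP13, and UBP13oe as an overexpressor of UBP13. WT is Col-0. Every genotype, WT included, was 4 days old and was kept throughout in dim blue light (1 µmol m-2 s-1), without a dark or other light control. The sources used here do not state the promoters of the overexpression constructs or the number of independent lines. The study asked how UBP12 and UBP13 act on CRY2 and seedling growth.

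Starch is built in plastids, where ADP-glucose pyrophosphorylase makes the activated sugar that starch synthases add to growing chains. It is broken down after phosphorylation of the granule surface, mainly by beta-amylases that release maltose and by enzymes that remove branches. QQS is an orphan gene, one with no recognisable relative outside its species, whose lowered expression raised leaf starch in Arabidopsis, and its protein binds the transcription factor subunit NF-YC4. QQS expression is also known to vary between plants with DNA methylation at its locus.

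The bases just upstream of 3 genes are shown because these genes carry the contrast of the results: QQS and GBSS1, which were far higher in the libraries labelled ubp12ubp13, and ISA3, which varied least. Each run is the 250 bases before the gene start given in the files, read 5′ to 3′ on the strand of the gene from the nuclear chromosomes of RefSeq TAIR10.1. QQS is on the plus strand (chr3:12348797-12349046), GBSS1 on the minus strand (chr1:11923767-11924016) and ISA3 on the plus strand (chr4:5784074-5789002 for the gene, chr4:5783824-5784073 for the bases shown). Capitals mark an evening element (AAAATATCT, here read on the opposite strand) and a G-box (CACGTG).
QQS: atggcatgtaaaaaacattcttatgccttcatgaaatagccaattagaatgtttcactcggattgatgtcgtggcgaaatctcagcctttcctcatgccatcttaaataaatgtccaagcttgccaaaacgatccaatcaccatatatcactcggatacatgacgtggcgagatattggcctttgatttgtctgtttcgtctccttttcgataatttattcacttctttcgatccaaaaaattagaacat
GBSS1: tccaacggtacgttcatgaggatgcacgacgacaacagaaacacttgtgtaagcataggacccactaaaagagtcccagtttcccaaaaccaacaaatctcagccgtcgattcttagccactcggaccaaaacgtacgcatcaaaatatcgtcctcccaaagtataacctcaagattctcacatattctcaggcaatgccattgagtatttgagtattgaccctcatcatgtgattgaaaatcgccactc
ISA3: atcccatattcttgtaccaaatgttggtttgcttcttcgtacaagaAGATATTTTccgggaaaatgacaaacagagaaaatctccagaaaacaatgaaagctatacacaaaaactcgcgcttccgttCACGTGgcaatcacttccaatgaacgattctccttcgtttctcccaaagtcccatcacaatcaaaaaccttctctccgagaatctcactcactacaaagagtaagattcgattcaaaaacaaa

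Both strands of this window were searched for 5 short motifs. Among 19775 genes with such a window, the G-box CACGTG was in 9.03%, the E-box CANNTG in 55.4%, the evening element AAAATATCT in 2.36%, the CCA1-binding site AAAAATCT in 6.53% and the I-box GATAAG in 13.4%. Every G-box is also an E-box. Of the 10 genes, ISA3 alone held a G-box and an evening element, DPE2 alone a CCA1-binding site and PGM1 alone an I-box, while 7 of 10 held an E-box. The QQS and SS1 windows held no match to any of the 5. These matches are letters in a window, and none of them is shown to be a bound site.

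Estimated depth was 15.64 to 30.94 M fragments, with the shallowest library in ubp12ubp13 and the deepest in UBP13oe, and log2 levels of replicate libraries correlated at 0.983 to 0.989 across genes. CRY2 was at 3923 and 3808 FPKM (fragments per kilobase of transcript and per M fragments) in CRY2oe and at 0 and 0.0187 FPKM in cry2-1, against 110 and 120.0 FPKM in WT. UBP13 was at 24.2 and 23.6 FPKM in the libraries labelled ubp12ubp13 and at 69.0 and 66.1 FPKM in UBP13oe, against 27.1 and 28.3 FPKM in WT. UBP12 was at 397 FPKM in ubp12ubp13 replicate 1 and marked as a failed estimate in replicate 2, against 35.0 and 34.8 FPKM in WT. UBP13 RNA was thus present in both of these libraries and UBP12 RNA in replicate 1, the failed estimate of replicate 2 giving no value, so they are called the libraries labelled ubp12ubp13, and each direction given for them rests on that label. The summed FPKM of 6 green tissue markers was 15480 to 15560 in CRY2oe, 10270 to 10850 in cry2-1, 25000 to 25810 in the libraries labelled ubp12ubp13 and 14520 to 14930 in UBP13oe, against 11480 to 12300 in WT. The 12 root markers are 6 of the endodermis and 6 of root hairs. The endodermis sums were 233.4 to 262.9 FPKM in CRY2oe, 737.4 to 765.9 in cry2-1, 225.8 to 235.4 in those labelled ubp12ubp13 and 534.8 to 570 in UBP13oe, against 399.4 to 419.7 in WT. The root hair sums were 29.65 to 33.31 FPKM in CRY2oe, 17.73 to 20.35 in cry2-1, 58.79 to 60.51 in those labelled ubp12ubp13 and 34.57 to 36.23 in UBP13oe, against 22.01 to 45.55 in WT. No green or root marker was at 0 in any genotype. Sums of 9 seed markers were 5.21 to 7.86 in CRY2oe, 9.28 to 9.45 in cry2-1, 17.75 to 29.9 in those labelled ubp12ubp13 and 2.98 to 4.13 in UBP13oe, against 17.1 to 42.45 in WT, with SESA1 at 0 in 1 or more libraries of CRY2oe, ubp12ubp13 and WT. Sums of 3 root cap markers lay between 3.79 and 7.21 in all libraries. These are whole seedlings, so fewer cells of a type and less RNA per cell cannot be told apart, and the part of organ makeup in any result was not tested.

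QQS (chr3:12349047-12349832, plus strand) was close to undetected in WT and was abundant in the libraries labelled ubp12ubp13. Its level was 136 and 125 FPKM in those labelled ubp12ubp13, against 0.254 and 0.654 FPKM in WT. It was at 3.18 and 5.70 FPKM in CRY2oe, at 7.23 and 5.68 FPKM in cry2-1 and at 3.14 and 1.55 FPKM in UBP13oe. Both WT libraries thus lay below all 8 others, and the 2 labelled ubp12ubp13 lay far above all 8 others. Ranked by mean, ubp12ubp13 was followed by cry2-1, CRY2oe, UBP13oe and WT. The neighbours cry2-1 and CRY2oe overlapped, although one line is labelled as lacking CRY2 and the other as overexpressing it. The other neighbours in this order did not overlap as listed. CRY2oe and UBP13oe were barely apart, with 3.176 FPKM in CRY2oe replicate 1 and 3.139 FPKM in UBP13oe replicate 1. A single QQS fragment is worth 0.0982 and 0.086 FPKM in these libraries, more than that gap, so CRY2oe and UBP13oe are not clearly separated.

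The WT values of QQS stand on very few fragments. With a spliced length of 586 bp, they correspond to an estimated 2 and 7 fragments in WT, compared with 1316 and 734 in the libraries labelled ubp12ubp13, 32 and 60 in CRY2oe, 73 and 55 in cry2-1 and 37 and 18 in UBP13oe. WT replicate 1 lay under its floor of 3 fragments, 0.390 FPKM. The rate of QQS fragments in the libraries labelled ubp12ubp13 was 267 times that in WT, with an exact 95% interval of 140.2 to 584.1. The ratio to WT was 9.0 (4.54 to 20.3) in CRY2oe, 13.1 (6.67 to 29.2) in cry2-1 and 4.83 (2.37 to 11.1) in UBP13oe. These intervals pool the 2 libraries of a genotype and rest on whole fragments estimated from an inferred depth and length. They cover counting error only, not the difference between plants, the error of these estimates or the choice of QQS by these values. They are a description, not a test. On the log2(FPKM + 1) scale, which compresses low values, the difference from WT was 6.51 ± 0.28 (SE) in those labelled ubp12ubp13, 1.88 in CRY2oe, 2.36 in cry2-1 and 1.17 in UBP13oe, each with the same SE. Between the libraries labelled ubp12ubp13 and UBP13oe it was 5.34.

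**Figure D1:**
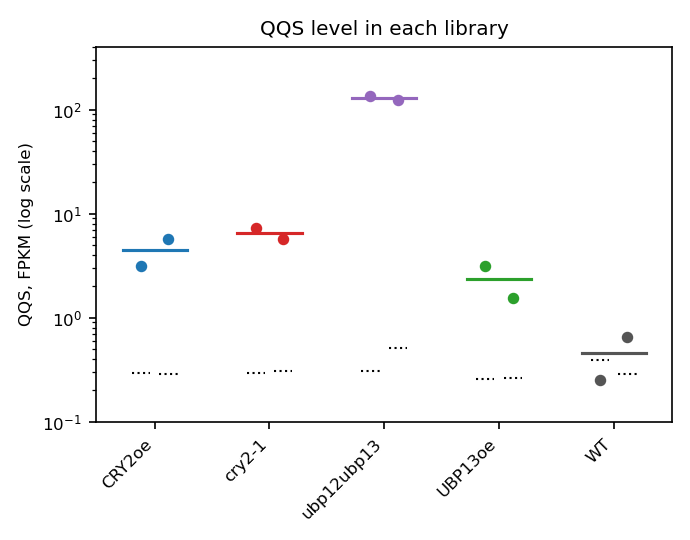
QQS level in each library (points, FPKM on a log axis) by genotype, with the mean of the 2 replicates as a line and the value of 3 fragments in that library as a dotted mark. The libraries labelled ubp12ubp13 sit at 136 and 125 FPKM, and the WT libraries, one of them under its dotted mark, at 0.254 and 0.654 FPKM.

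Most of the 5 gene models on each side of QQS were listed at 0 or close to it, with AT3G30730 as the exception. Of these 10, 7 are annotated as pseudogenes, 1 as a transcribed pseudogene and 2 as protein coding. GDU6 (AT3G30725), a member of the glutamine dumper family, was at 0.247 FPKM in UBP13oe replicate 1 and listed at 0 in the other 9 libraries. The pseudogene AT3G30727 was at 0.0241 FPKM in ubp12ubp13 replicate 1 and listed at 0 elsewhere. AT3G30730, a coding model of only 204 bp at 7563 bp from QQS, was the single neighbour that passed the filter of 1 FPKM in at least 2 libraries. It was at 2.88 and 2.31 FPKM in the libraries labelled ubp12ubp13, against 1.76 and 2.58 FPKM in WT, so these groups overlapped. It was listed at 0 and 1.315 FPKM in CRY2oe and at 0 and 1.402 FPKM in cry2-1, below WT, and at 2.347 and 2.38 FPKM in UBP13oe. The limma test did not call it in any of the 4 comparisons with WT. The log2 differences from WT were -1.05 in CRY2oe and -1.02 in cry2-1, each with an SE of 0.456, so a missing call does not show equal levels. The other 7 models were listed at 0 in all 10 libraries.

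Among the precursor genes, PGM1 and ADG1 were lowest in cry2-1 and highest in the libraries labelled ubp12ubp13. PGM1 (AT5G51820, chr5:21063368-21068057, minus strand) encodes the plastid phosphoglucomutase that supplies glucose 1-phosphate. It was at 40.2 and 41.0 FPKM in CRY2oe, 20.3 and 20.5 in cry2-1, 54.5 and 52.5 in those labelled ubp12ubp13 and 35.3 and 41.0 in UBP13oe, against 31.4 and 34.3 FPKM in WT. As deposited, every genotype was apart from WT, with cry2-1 alone below it, while CRY2oe and UBP13oe overlapped. The difference from WT on the log2(FPKM + 1) scale was 0.30 ± 0.07 (SE) in CRY2oe, -0.66 in cry2-1, 0.69 in those labelled ubp12ubp13 and 0.21 in UBP13oe.

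ADG1 (AT5G48300, chr5:19570240-19572804, plus strand), the small subunit that gives ADP-glucose pyrophosphorylase its catalytic site, also had cry2-1 lowest and the libraries labelled ubp12ubp13 highest. Its level was 78.2 and 76.0 FPKM in CRY2oe, 46.7 and 49.2 in cry2-1, 126 and 122 in those labelled ubp12ubp13 and 79.5 and 82.9 in UBP13oe, against 70.6 and 72.2 FPKM in WT. None of the 5 genotypes overlapped another as deposited. After each library was rescaled by the median of ratios, ADG1 was at 79.2 and 76.9 FPKM in CRY2oe and 76.1 and 77.8 in UBP13oe, against 76 and 77 FPKM in WT, so these 3 genotypes then overlapped. The means in those labelled ubp12ubp13 and in cry2-1 were 1.74 and 0.672 times the WT mean.

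APL3 (AT4G39210, chr4:18259609-18263417, plus strand), a large subunit of the same enzyme, ran against its partners in the CRY2 lines. It was at 2.64 and 2.38 FPKM in CRY2oe, 4.43 and 4.18 in cry2-1, 6.24 and 7.54 in those labelled ubp12ubp13 and 3.30 and 3.27 in UBP13oe, against 2.89 and 2.85 FPKM in WT. As deposited, it was higher in cry2-1 and lower in CRY2oe than in WT, the reverse of PGM1 and ADG1. It was highest in the libraries labelled ubp12ubp13. In CRY2oe the difference of APL3 from WT was small, -0.14 ± 0.10 (SE) on the log2(FPKM + 1) scale, and ADG1 overlapped WT after rescaling. The difference between CRY2oe and cry2-1 was -0.60 ± 0.10 (SE) for APL3, 0.67 ± 0.04 for ADG1 and 0.96 ± 0.07 for PGM1 on the log2(FPKM + 1) scale. APL3 was a minor large subunit, with 2.11% and 1.91% of the summed FPKM of APL1 to APL4 in CRY2oe, 5.26% and 4.77% in cry2-1, 3.63% and 4.45% in those labelled ubp12ubp13 and 2.97% and 2.94% in UBP13oe, against 2.71% and 2.81% in WT. APL1 made up most of the rest in every library.

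Of the starch synthases, GBSS1 differed most and SS1 little. GBSS1 (AT1G32900, chr1:11920390-11923766, minus strand) is the granule-bound synthase that makes amylose. It was at 10.1 and 8.12 FPKM in CRY2oe, 4.99 and 4.45 in cry2-1, 25.8 and 25.4 in those labelled ubp12ubp13 and 4.87 and 5.56 in UBP13oe, against 6.16 and 5.42 FPKM in WT. CRY2oe and those labelled ubp12ubp13 were above WT, cry2-1 was below it, and UBP13oe overlapped it. The mean in the libraries labelled ubp12ubp13 was 4.42 times that in WT (log2 difference 1.97 ± 0.11 SE) and 4.91 times that in UBP13oe (2.1 ± 0.11 SE). In CRY2oe the mean was 1.57 times that in WT.

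SS1 (AT5G24300, chr5:8266790-8271205, plus strand) encodes a soluble synthase of amylopectin. Its level was 47.9 and 47.2 FPKM in CRY2oe, 37.8 and 39.3 in cry2-1, 66.2 and 60.9 in those labelled ubp12ubp13 and 45.9 and 48.7 in UBP13oe, against 43.3 and 40.9 FPKM in WT. The highest library was 1.75 times the lowest. The share of GBSS1 in the summed FPKM of the 6 starch synthases was 8.27% and 6.59% in CRY2oe, 5.0% and 4.5% in cry2-1, 13.7% in each library labelled ubp12ubp13 and 4.21% and 4.48% in UBP13oe, against 6.06% and 5.42% in WT.

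Among the breakdown genes, BAM3 and SEX1 had their lowest levels in cry2-1 but parted in the other lines. BAM3 (AT4G17090, chr4:9604962-9607334, minus strand) is the main plastid beta-amylase of leaf starch breakdown. It was at 65.4 and 75.6 FPKM in CRY2oe, 11.8 and 11.7 in cry2-1, 157 and 198 in those labelled ubp12ubp13 and 142 and 132 in UBP13oe, against 83.7 and 86.1 FPKM in WT. No 2 genotypes overlapped. The mean in cry2-1 was 0.139 times that in WT (-2.75 ± 0.11 SE on the log2 scale), and the mean in CRY2oe was 6.0 times that in cry2-1 while still below WT. The highest library was 17.0 times the lowest, the widest range among the 9 starch genes. BAM3 overlaps the locus AT4G17085, and the sources used here do not state if fragments were assigned by strand, so some of its fragments may belong to that locus.

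The share of BAM3 in its family differed as well. It held 30.7% and 34.1% of the summed FPKM of BAM1 to BAM9 in CRY2oe, 6.88% and 6.60% in cry2-1, 49.1% and 52.2% in those labelled ubp12ubp13 and 51.2% and 49.2% in UBP13oe, against 37.7% and 37.0% in WT. The cry2-1 shares lay far under all the others, as the bars of family makeup show.

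**Figure D2:**
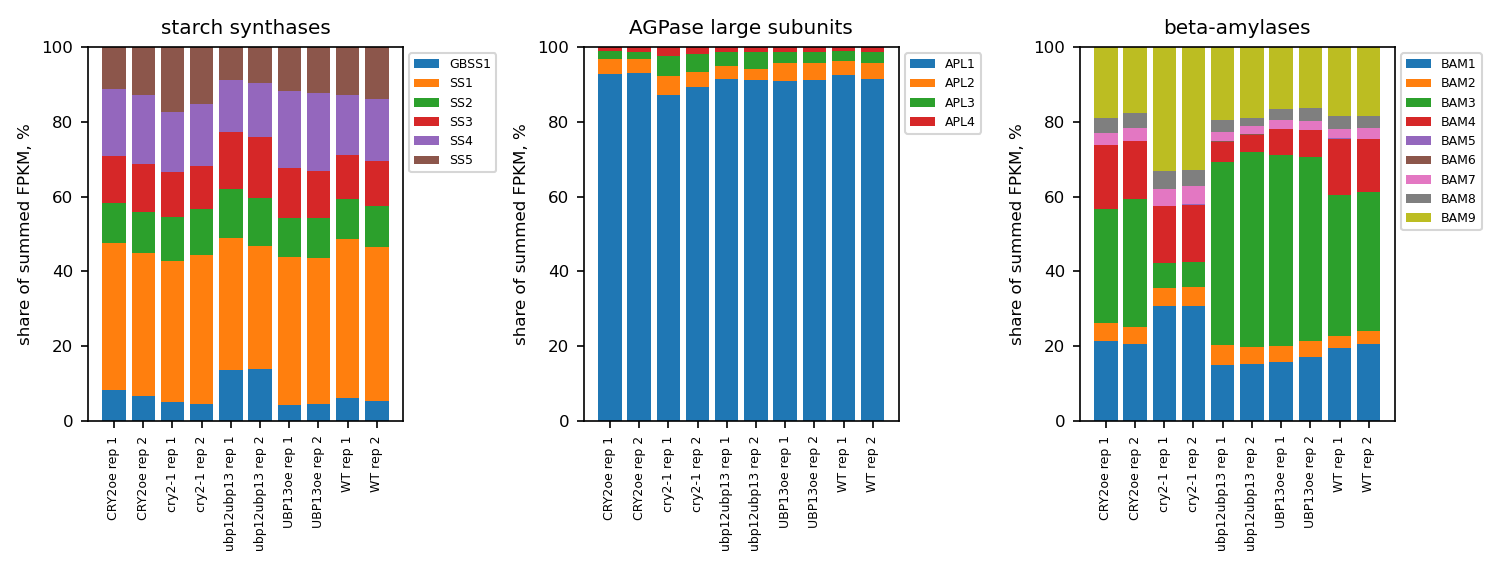
Share of summed FPKM (%) held by each starch synthase, each large subunit of ADP-glucose pyrophosphorylase (AGPase) and each beta-amylase, 1 bar per library. GBSS1 reaches 13.7% of the synthases in the libraries labelled ubp12ubp13, and BAM3 holds 6.88% and 6.60% of the beta-amylases in cry2-1.

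SEX1 (AT1G10760, chr1:3581034-3590928, minus strand) encodes the glucan, water dikinase that phosphorylates starch and so opens it to breakdown. It was at 92.8 and 95.3 FPKM in CRY2oe, 24.9 and 23.7 in cry2-1, 57.4 and 47.3 in those labelled ubp12ubp13 and 63.2 and 71.5 in UBP13oe, against 61.6 and 71.0 FPKM in WT. CRY2oe lay above all the other genotypes and cry2-1 below them. Unlike most of the genes, SEX1 was lower in the libraries labelled ubp12ubp13 than in WT, and UBP13oe overlapped WT. The difference on the log2(FPKM + 1) scale was 1.91 ± 0.10 (SE) between CRY2oe and cry2-1 and -0.34 ± 0.10 between those labelled ubp12ubp13 and WT.

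DPE2 (AT2G40840, chr2:17044963-17050947, plus strand) is the cytosolic glucanotransferase that uses the exported maltose. Its level was 31.4 and 31.3 FPKM in CRY2oe, 15.2 and 15.7 in cry2-1, 46.2 and 41.9 in those labelled ubp12ubp13 and 32.3 and 34.6 in UBP13oe, against 23.5 and 25.4 FPKM in WT. Its 5 genotypes did not overlap as deposited, and cry2-1 alone was below WT. After rescaling, CRY2oe (31.8 and 31.6 FPKM) and UBP13oe (30.9 and 32.5 FPKM) overlapped.

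ISA3 (AT4G09020), a debranching enzyme of starch breakdown, varied least, the highest library being 1.62 times the lowest. It was at 14.8 and 14.3 FPKM in CRY2oe, 9.10 and 9.11 in cry2-1, 11.2 and 10.1 in those labelled ubp12ubp13 and 10.7 and 12 in UBP13oe, against 11.4 and 12.8 FPKM in WT. Like SEX1, it was highest in CRY2oe and lowest in cry2-1. UBP13oe overlapped both WT and those labelled ubp12ubp13, while the libraries labelled ubp12ubp13 lay just below WT.

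**Figure D3:**
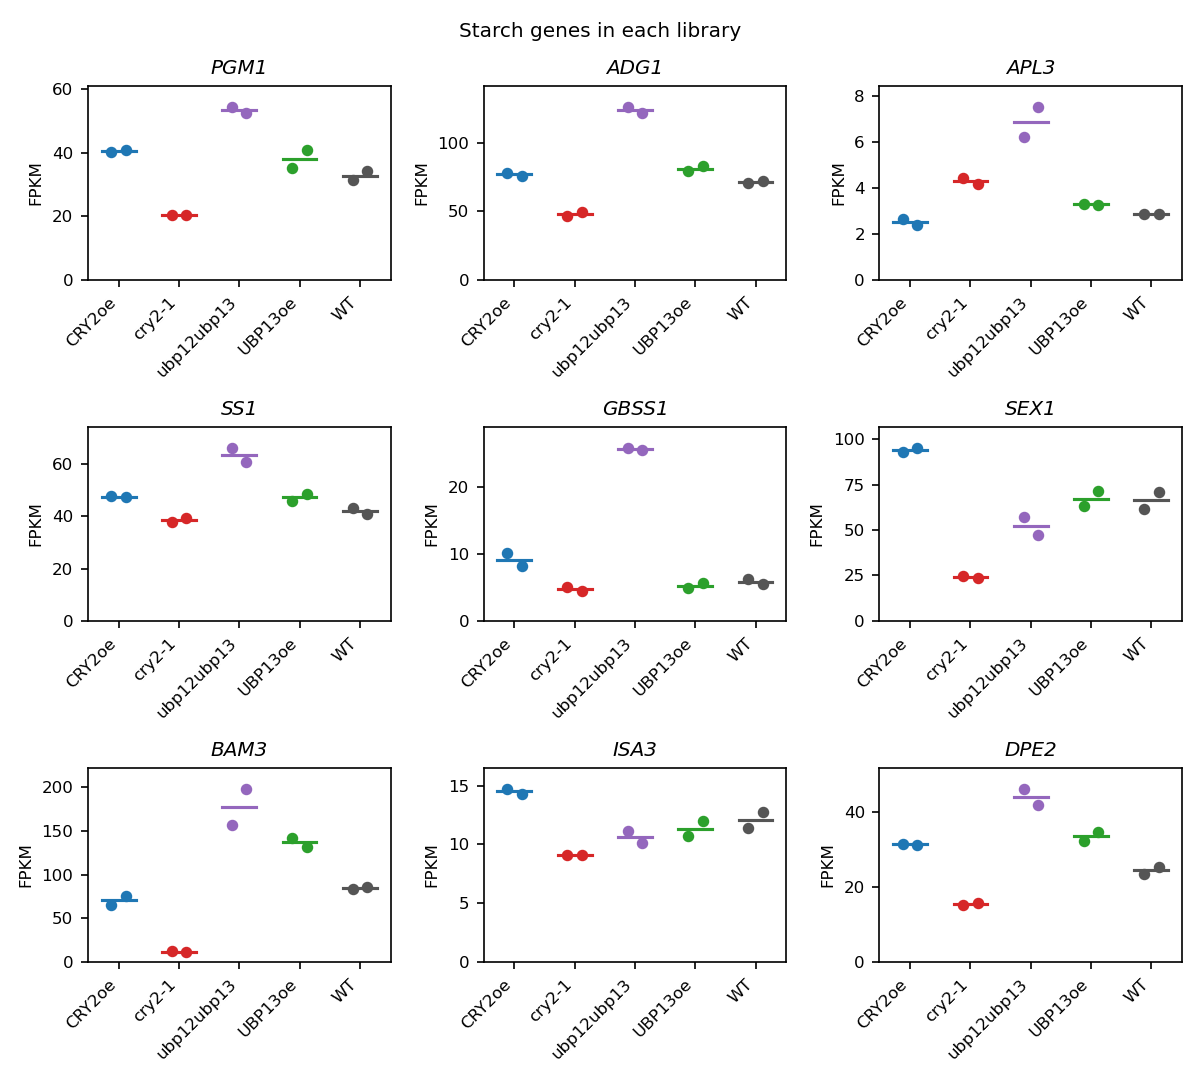
Level of 9 starch genes in each library (points, FPKM on linear axes starting at 0) by genotype, with the mean of 2 replicates as a line. The cry2-1 libraries are lowest for every gene shown except APL3 and GBSS1, and those labelled ubp12ubp13 are highest for every gene except SEX1 and ISA3.

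Across the 10 genes, the libraries of CRY2oe lay wholly above WT for 8 genes and below for 2 (APL3 and BAM3), where 40.4% of the 19955 genes tested lay wholly above and 24.3% below. In cry2-1, 2 genes (QQS and APL3) lay above and 8 below, beside 51.4% and 20.5% of all genes. In those labelled ubp12ubp13, 8 lay above and 2 (SEX1 and ISA3) below, beside 46.4% and 30.4% of all genes. In UBP13oe, 7 lay above and 0 below, beside 55.4% and 17.3% of all genes. Between CRY2oe and cry2-1, 8 were higher and 1 lower (27.1% and 45.4% of all genes), and between those labelled ubp12ubp13 and UBP13oe, 8 were higher and 1 lower (32.2% and 45.2%). The median log2 difference of the 10 genes from WT was 0.27 in CRY2oe (0.05 over all genes), -0.47 in cry2-1 (0.12), 0.81 in those labelled ubp12ubp13 (0.09) and 0.17 in UBP13oe (0.15). The genes were chosen with these comparisons in view, so nothing is read from these counts, and the 4 comparisons share the WT libraries.

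The median of all genes was above 0 by 0.12 in cry2-1 and by 0.15 in UBP13oe on the log2 scale. Rescaling each library by the median of ratios brought these medians close to 0 and changed the split of all genes called. In cry2-1 3213 genes were then higher and 4122 lower, where 6331 and 2363 were so as deposited. The rescaled counts were 2077 higher and 3128 lower in CRY2oe (3302 and 1922 as deposited), 5378 and 5817 in those labelled ubp12ubp13 (6905 and 4439) and 3430 and 3953 in UBP13oe (7023 and 1744). Between CRY2oe and cry2-1 they were 3471 and 3409 (2685 and 4785). After this rescaling, the UBP13oe differences from WT were -0.01 for SS1, 0.04 for PGM1, 0.01 for ADG1 and 0.02 for APL3, compared with 0.16, 0.21, 0.18 and 0.15 as deposited. The small differences of these 4 genes in UBP13oe were thus about the size of the shift of all genes, and that of SS1 changed sign. BAM3 (0.51) and DPE2 (0.27) remained higher in UBP13oe than in WT after rescaling. With rescaled levels, SS1, PGM1, ADG1 and APL3 overlapped WT in UBP13oe, GBSS1 and ISA3 lay below it, and QQS, BAM3 and DPE2 stayed above it. In CRY2oe ADG1 then overlapped WT, and no gene changed in the other 4 comparisons. The share of all genes lying wholly above or below WT was not computed after rescaling, so nothing is read from these changes.

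**Figure D4:**
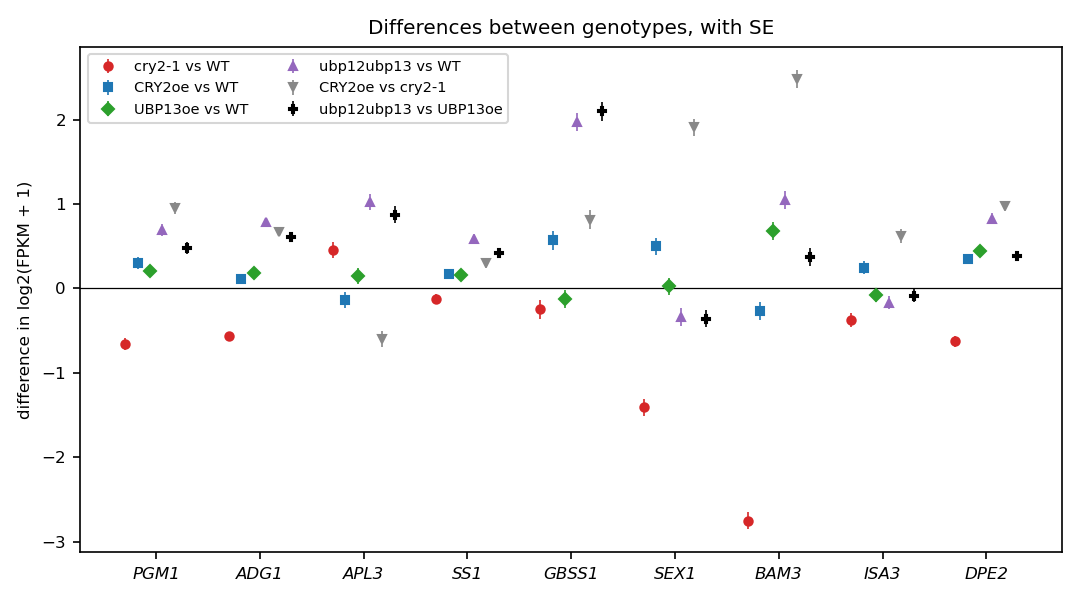
Differences in log2(FPKM + 1) of 9 starch genes in 6 comparisons, with bars for the SE from the limma fit. BAM3 and SEX1 spread most along the comparisons with CRY2 changed (-2.75 and -1.41 for cry2-1 against WT), and GBSS1 stands at 1.97 and 2.1 in the comparisons of those labelled ubp12ubp13 with WT and UBP13oe.

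The rest of the pathway was taken as 48 other genes of synthesis, breakdown and plastid sugar transport. Of these, 43 passed the filter, and APS2, BAM5, BAM6, AMY1 and GPT2 did not. They were tested in a limma fit over all genes, and a call is an adjusted p of 0.05 or less. The 4 comparisons with WT share its libraries.

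In CRY2oe, 19 of 43 genes rose and 0 fell relative to WT, where 16.5% of all genes rose and 9.63% fell. The risen genes were 12 of 20 in synthesis (7 after rescaling), 7 of 17 in breakdown and 0 of 6 in transport. The list median was 0.21, beside 0.05 over all genes. SEX4, a phosphoglucan phosphatase, averaged 12.8 ± 0.126 FPKM in CRY2oe and 7.97 ± 0.715 in WT (SD, n = 2 each), a log2 difference of 0.62 ± 0.08 (SE). The debranching enzyme LDA was at 12.3 FPKM in CRY2oe and 8.04 in WT, and the granule protein LESV at 11.7 FPKM in CRY2oe and 7.67 in WT. Their limma adjusted p-values were 0.00204, 0.00465 and 0.00723. This count depended on single libraries: 10 rose when CRY2oe replicate 1 was left out and 11 when replicate 2 was, synthesis calls numbering 6 in either case and breakdown calls 4 without replicate 1. No gene was called lower by limma, and 1 (a transport gene) was lower at an unadjusted p below 0.05. With WT replicate 1 left out 1 transport gene was called lower, with WT replicate 2 left out 1 was called higher, and after rescaling 14 of the 43 rose and 1 fell. Over all genes in CRY2oe 2077 rose and 3128 fell after rescaling, where 3302 and 1922 did so as deposited. In the CRY2oe libraries 4 of 6 green tissue markers rose, 5 of 6 endodermis markers fell and no root hair marker was called. Without WT replicate 1, 2 of the 12 root markers were called higher.

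In cry2-1 more of the pathway fell than rose. Relative to WT 5 of 43 genes rose and 16 fell, where 31.7% of all genes rose and 11.8% fell. After rescaling 4 of the 43 rose and 23 fell. Over all genes 3213 rose and 4122 fell after rescaling, where 6331 and 2363 did so as deposited. The list median was -0.09, beside 0.12 over all genes. Breakdown genes fell in 8 of 17 cases and rose in 2, transport genes fell in 4 of 6, and synthesis genes fell in 4 of 20 and rose in 3 (8 and 2 after rescaling, and 5 rose without cry2-1 replicate 2). PHS2, the cytosolic glucan phosphorylase, fell to 18.1 ± 0.424 FPKM in cry2-1, against 53.8 ± 2.62 in WT (SD, n = 2 each; log2 difference -1.52 ± 0.07 SE; limma adjusted p = 4.52e-06). ESV1, a granule-binding protein that restrains starch loss, fell to 16.1 FPKM, against 33.1 in WT, and DPE1, a plastid disproportionating enzyme, to 9.38, against 18.1 FPKM in WT. The 3 largest rises were those of PTST3, which takes part in granule initiation (18.1 FPKM in cry2-1 and 12.5 in WT), the beta-amylase homologue BAM9 (57.8 FPKM in cry2-1 and 41.8 in WT) and the granule initiation protein MFP1 (27.3 FPKM in cry2-1 and 20.6 in WT). The limma adjusted p-values of these other 5 genes lay between 3.63e-05 for ESV1 and 0.000896 for BAM9. Of the 6 green tissue markers, 1 rose and 2 fell in cry2-1, while all 6 endodermis markers rose and 1 of 6 root hair markers (EXPA18) fell. Of the 12 root markers, 5 were called lower without WT replicate 2, 0 without cry2-1 replicate 1 and 3 after rescaling. No green marker was called higher after rescaling, without WT replicate 2 or without any single cry2-1, CRY2oe or UBP13oe library.

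In the libraries labelled ubp12ubp13, 28 of 43 genes rose and 5 fell relative to WT, where 34.6% of all genes rose and 22.2% fell. Risen genes were 15 of 20 in synthesis, 9 of 17 in breakdown and 4 of 6 in transport. After rescaling 24 rose and 7 fell, and in breakdown 7 rose and 4 fell, where 9 and 2 did so as deposited. Over all genes 5378 rose and 5817 fell after rescaling, where 6905 and 4439 did so as deposited. The list median was 0.36, beside 0.09 over all genes. LSF2, a phosphoglucan phosphatase, averaged 24.9 ± 0.623 FPKM in those labelled ubp12ubp13 and 9.98 ± 0.151 in WT (SD, n = 2 each; log2 difference 1.24 ± 0.07 SE; limma adjusted p = 4.23e-06). The synthase SS3 was at 29.6 FPKM in those labelled ubp12ubp13 and 12.1 in WT (limma adjusted p = 7.98e-07), and ISA2, a non-catalytic isoamylase subunit of synthesis, at 16.6 FPKM in those labelled ubp12ubp13 and 7.12 in WT (limma adjusted p = 1.29e-05). BAM4, a beta-amylase homologue, fell to 17.6 FPKM, against 33.4 in WT, the plastid ATP carrier NTT1 to 32.0, against 45.3 in WT, and the plastid glucose transporter GLT1 to 123, against 164 FPKM in WT. All 6 green tissue markers rose in the same libraries, while 5 of 6 root hair markers rose and all 6 endodermis markers fell, and whether they and the starch genes share a source was not tested. Leaving out either library labelled ubp12ubp13 left 3 of the 12 root markers called higher.

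In UBP13oe, 17 of 43 genes rose and 3 fell relative to WT, where 35.2% of all genes rose and 8.74% fell. After rescaling, 11 rose and 7 fell, so the split of directions depends on the scaling. Over all genes 3430 rose and 3953 fell after rescaling, where 7023 and 1744 did so as deposited. In breakdown the split was 5 and 1 as deposited and 3 and 3 rescaled. The list median of 0.18 was near the 0.15 over all genes. Of the synthesis genes 11 of 20 rose, of the breakdown genes 5 of 17. ISA2 was at 11.1 FPKM in UBP13oe and 7.12 in WT, MFP1 at 31.1 in UBP13oe and 20.6 in WT, and SS4, a synthase of granule initiation, at 24.9 in UBP13oe and 16.4 FPKM in WT. BAM4 fell to 19.3 FPKM, against 33.4 in WT, ESV1 to 19.4, against 33.1 in WT, and GLT1 to 133, against 164 FPKM in WT. The limma adjusted p-values of these 6 genes were between 5.42e-05 for BAM4 and 0.00229 for GLT1. Without UBP13oe replicate 2, 11 of the 43 rose, 7 of them in synthesis and 3 in breakdown, and without WT replicate 1 breakdown also had 3. Of the markers, 3 of 6 for green tissue and 5 of 6 for endodermis rose in UBP13oe, and none for root hairs was called. Without WT replicate 1, 9 of the 12 root markers rose, and without WT replicate 2, 1 fell.

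CRY2 gain and loss were set against each other directly. Between CRY2oe and cry2-1, 24 of 43 genes were called higher in CRY2oe and 3 lower, where 13.5% of all genes were called higher and 24% lower. The list median was 0.31, beside -0.06 over all genes. Higher genes were 10 of 20 in synthesis, 11 of 17 in breakdown and 3 of 6 in transport. PHS2 averaged 60.7 ± 1.66 FPKM in CRY2oe and 18.1 ± 0.424 in cry2-1 (SD, n = 2 each; log2 difference 1.69 ± 0.07 SE; limma adjusted p = 2.23e-06), followed by ESV1 at 38.8 FPKM in CRY2oe and 16.1 in cry2-1 and SEX4 at 12.8 FPKM in CRY2oe and 4.95 in cry2-1. BAM9 was lower at 40.1 FPKM in CRY2oe, against 57.8 in cry2-1. The other lower genes were PTST3 (15.4 FPKM in CRY2oe and 18.1 in cry2-1) and MFP1 (23.8 FPKM in CRY2oe and 27.3 in cry2-1), with limma adjusted p-values of 0.0124 and 0.0103. The PTST3 call was lost without cry2-1 replicate 1 (limma adjusted p = 0.0695) or CRY2oe replicate 2 (0.0767). The MFP1 call was lost without cry2-1 replicate 1 (0.066) or CRY2oe replicate 1 (0.0646) and after rescaling (0.0621). Without cry2-1 replicate 1 the count of lower genes over the whole list was 1.

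Between the libraries labelled ubp12ubp13 and UBP13oe, 20 of 43 genes were called higher in those labelled ubp12ubp13 and 5 lower, where 20.8% of all genes were called higher and 32.1% lower. The list median was 0.23, beside -0.06 over all genes. The synthase SS2 was at 24.4 FPKM in those labelled ubp12ubp13 and 12.5 in UBP13oe, SS3 at 29.6 in those labelled ubp12ubp13 and 15.6 in UBP13oe, and LSF2 at 24.9 in those labelled ubp12ubp13 and 14.2 FPKM in UBP13oe. PHS2 was lower at 48.6 FPKM, against 65.2 in UBP13oe, the phosphoglucan, water dikinase PWD at 35.0, against 45.1 in UBP13oe, and NTT1 at 32.0, against 40.4 FPKM in UBP13oe. The limma adjusted p-values of these 6 genes were between 5.49e-06 for SS3 and 0.00645 for NTT1. PTST3, BAM4 and GLT1 overlap neighbouring loci, which makes their values uncertain without strand information.

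**Figure D5:**
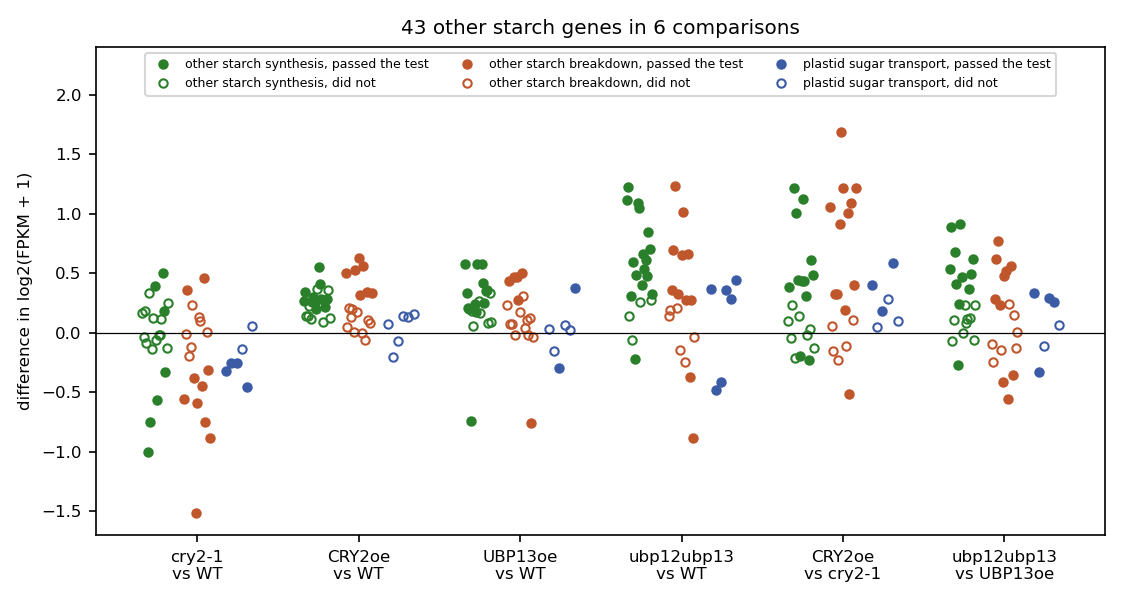
Differences in log2(FPKM + 1) of 43 other starch genes in 6 comparisons, coloured by list and filled where limma called the gene at an adjusted p of 0.05 or less. In cry2-1 against WT 16 filled points lie below 0 and 5 above, and in CRY2oe against WT all 19 filled points lie above 0.

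The 7 genes tied to QQS by its protein partner or by DNA methylation were measured in the same fit. NF-YC4, the partner of the QQS protein, varied little: 50.8 FPKM in CRY2oe, 55.5 in cry2-1, 57.6 in those labelled ubp12ubp13 and 47.7 in UBP13oe, against 54.1 FPKM in WT. The maintenance methyltransferase MET1 averaged 6.16 FPKM in CRY2oe, 7.85 in cry2-1, 7.83 in those labelled ubp12ubp13 and 9.27 in UBP13oe, against 4.86 FPKM in WT. MET1, the chromatin remodeller DDM1 and the methyltransferase CMT3 rose in cry2-1, in those labelled ubp12ubp13 and in UBP13oe, with limma adjusted p-values from 0.000389 to 0.00555. Of the 7 genes, 4 rose and 0 fell in cry2-1, where 31.7% of all genes rose and 11.8% fell. In those labelled ubp12ubp13 4 rose and 1 fell, where 34.6% of all genes rose and 22.2% fell. In those labelled ubp12ubp13 SUVH4, a histone methyltransferase that works with CMT3, rose to 6.25 FPKM, against 4.19 in WT (limma adjusted p = 0.000563), and the DNA demethylase ROS1 fell to 2.15, against 3.40 FPKM in WT (limma adjusted p = 0.00102). These RNA levels say nothing of methylation at the QQS locus, which was not measured here.

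Several calls in this list were less steady. In UBP13oe all 7 genes were called, 4 higher and 3 lower, where 35.2% of all genes were called higher and 8.74% lower, with SUVH4 higher (5.84 FPKM in UBP13oe and 4.19 in WT, limma adjusted p = 0.00282) and the de novo methyltransferase DRM2 lower (6.64 FPKM in UBP13oe and 9.24 in WT, limma adjusted p = 0.00433). NF-YC4 (limma adjusted p = 0.0456) and ROS1 (0.0333) were also lower there. Leaving out 1 library took the limma adjusted p to as much as 0.273 for NF-YC4 (without UBP13oe replicate 2) and 0.121 for ROS1 (without UBP13oe replicate 2). The NF-YC4 call was lost without any single library other than WT replicate 2 and UBP13oe replicate 1, and the ROS1 call without any WT, CRY2oe or UBP13oe library. SUVH4 in cry2-1 (limma adjusted p = 0.0411) lost its call without any 1 of the 10 libraries, with values of 0.0528 to 0.2. After rescaling, the log2 difference of SUVH4 between cry2-1 and WT was 0.08, where it was 0.21 as deposited, and the call was lost (limma adjusted p = 0.391). In CRY2oe 16.5% of all genes were called higher and 9.63% lower. CMT3 was the single gene of the 7 called there, at 6.04 FPKM, against 4.42 in WT (limma adjusted p = 0.0185). It was lost without WT replicate 2 (0.0813), CRY2oe replicate 1 (0.0873) or CRY2oe replicate 2 (0.0764), and MET1 was called without WT replicate 1 (0.0245).

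Between CRY2oe and cry2-1, DDM1 (3.04 FPKM in CRY2oe and 4.5 in cry2-1, limma adjusted p = 0.00628) and CMT3 (6.04 FPKM in CRY2oe and 8.15 in cry2-1, limma adjusted p = 0.0118) were lower. Of all genes, 13.5% were called higher in CRY2oe and 24% lower. CMT3 lost its call without cry2-1 replicate 1 (limma adjusted p = 0.0806) or CRY2oe replicate 2 (0.0634), while MET1 gained one without either WT library (0.0319 and 0.0314). Between those labelled ubp12ubp13 and UBP13oe, where 20.8% of all genes were called higher and 32.1% lower, NF-YC4 was higher (limma adjusted p = 0.00641). DRM2 was higher too (0.0212) but not without UBP13oe replicate 1 (0.129) or either library labelled ubp12ubp13 (0.0633 and 0.076). ROS1 was lower (limma adjusted p = 0.0338) but lost its call after rescaling (0.0813) and without any CRY2oe, UBP13oe or ubp12ubp13 library. DRM2 in those labelled ubp12ubp13 was called lower than in WT without WT replicate 1 (limma adjusted p = 0.0463) and after rescaling (0.0267), and in cry2-1 after rescaling (0.0467).

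Genes whose profile over the 10 libraries was most like that of QQS were found by the mean absolute difference between log2(FPKM + 1) profiles, each centred on its own mean. The median distance of the 19937 candidates from QQS was 1.69. The nearest was AT1G21525 (0.593), followed by AT1G21520 (0.749), PUB54 (AT1G01680, a plant U-box protein, 0.777), ELIP2 (AT4G14690, an early light-induced protein, 0.805) and AT1G43910 (an ATPase-like protein, 0.811). AT1G21525 was at 65.0 and 100.4 FPKM in those labelled ubp12ubp13, against 2.03 and 2.39 FPKM in WT. PUB54 was at 11.1 and 16.1 FPKM in those labelled ubp12ubp13 and at 0.127 and 0 FPKM in WT. ELIP2 was at 39.6 and 43.9 FPKM in those labelled ubp12ubp13 and at 2.65 and 1.36 FPKM in WT. Unlike QQS, AT1G21525 was no lower in WT than in UBP13oe, where it was at 2.17 and 1.1 FPKM. AT1G21520 was higher in WT (5.505 and 6.433 FPKM) than in UBP13oe (4.496 and 4.179 FPKM), and PUB54 and ELIP2 overlapped between them. Only AT1G43910 was lower in WT (1.836 and 2.071 FPKM) than in UBP13oe (4.127 and 5.035 FPKM). AT1G21520 (chr1:7534154-7534789) and AT1G21525 (chr1:7537087-7537649) lie close together. AT1G43910 overlaps AT1G43900, so its fragments are uncertain.

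For GBSS1 the nearest profiles were much closer, with a median distance of 0.695 over the candidates. They were AT5G05300 (0.135), CAB2 (AT1G29920, a chlorophyll a/b-binding protein, 0.142), PGL5 (AT5G24420, annotated as a 6-phosphogluconolactonase, 0.145), AT1G55960 (0.146) and ATGSTF13 (AT3G62760, a glutathione S-transferase, 0.167). CAB2 was at 1584 and 1396 FPKM in CRY2oe, 825 and 894 in cry2-1, 3828 and 3244 in those labelled ubp12ubp13 and 839 and 753 in UBP13oe, against 1012 and 702 FPKM in WT. Near-identical copies of CAB2 can share its reads, which makes its own level uncertain. AT1G55960 was at 107 and 110 FPKM in those labelled ubp12ubp13, against 34.5 and 32.2 FPKM in WT. The nearest, AT5G05300, was at only 3.01 and 2.41 FPKM in those labelled ubp12ubp13. It was at 0.348 and 0.344 FPKM in CRY2oe and listed at 0 in cry2-1, UBP13oe and WT. PGL5 (0.811 and 0.350 FPKM) and ATGSTF13 (0.319 and 0.0781 FPKM) were also low in WT, and the scale used compresses low values. Both sets of neighbours describe these 10 libraries, whose profiles are dominated by the pair labelled ubp12ubp13.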

How the data were processed

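RNA was measured in 10 libraries, 2 per genotype, grouped by their titles. The libraries were directional and made from poly(A) RNA, per the labels' protocols. Reads were processed with STAR and with Cufflinks 2.1.1 on TAIR10, per the submitters' processing notes, which name no STAR version. The deposited values are FPKM per gene, estimated by the authors, per the file headers, so no count test was run. Entries marked failed or skipped (15, at 10 loci) were set missing. Gene coordinates are those of the files, written from 1. Upstream windows were read from RefSeq TAIR10.1 at those starts. Of 33557 genes, 32810 matched a reference locus tag and 10573 had the same start and end.

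Depth came from 2919 intronless genes (800 to 4000 bp) with values of up to 6 fragments. With 210 bp taken off each length, 96.6% to 99.07% of these values per library were within 0.1 of a whole fragment. The floor of 3 fragments at 1 kb was 0.0970 to 0.192 FPKM, for counting error only, and shallower libraries are less precise for low genes.

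The members and lists were chosen with earlier results of these data known. The fit held 19957 genes, those reaching 1 FPKM in 2 or more libraries. Values were fitted as log2(FPKM + 1) with limma 3.58.1 in R 4.3.3 (trended prior, mean per genotype, all 10 libraries, 5 residual and 3.15 prior degrees of freedom), with two-sided tests and Benjamini-Hochberg adjustment over all genes within each of 6 comparisons. The fit was also run on simulated data with independent noise and few changed genes. These libraries differ at many more genes, so nothing is concluded from that run. Fold changes on this scale understate the change of low genes. Where nothing says that the 2 replicates came from separate cultures, p-values measure the spread between them only.

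Named besides the 10 members were, per comparison, the 3 called genes of the 48 with the largest rise and the 3 with the largest fall at a mean of 5 FPKM or more in the higher genotype, all 7 QQS partner and DNA methylation genes, 5 gene models on each side of QQS, and the 5 genes most like QQS and GBSS1. Intervals of QQS fragment ratios are exact for counts, but were taken on estimated fragments rounded to whole numbers and pooled by genotype. The alternatives tried were no filter, a pseudocount of 0.1, a mean of at least 5 FPKM, rescaling by the median of ratios, a replicate block, only the 4 libraries compared, a prior without trend and leaving out each library. Python 3.11.15 with pandas 2.3.3, scipy 1.17.1 and matplotlib 3.10.9 was used.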

Additional observations from a re-analysis of the deposited data

How the results depend on the processing

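Of the counts of other starch genes called, 100 of the 102 alternative values lay within 1.5 times the value reported. The exceptions were both in CRY2oe against WT: 10 with CRY2oe replicate 1 left out and 11 with replicate 2 left out. Leaving out 1 library at a time gave 10 to 20 called genes in CRY2oe, 20 to 23 in cry2-1, 29 to 32 in those labelled ubp12ubp13 and 14 to 22 in UBP13oe against WT, 21 to 27 between CRY2oe and cry2-1, and 21 to 27 between those labelled ubp12ubp13 and UBP13oe. Rescaling by the median of ratios left 14 higher and 1 lower in CRY2oe, 4 and 23 in cry2-1, 24 and 7 in those labelled ubp12ubp13, and 11 and 7 in UBP13oe. For the log2 differences of the 10 members, a shift was judged by the larger replicate SD of the 2 genotypes compared. Rescaling kept 28 differences within it, moved 31 by more and reversed 1. With a pseudocount of 0.1, 46 stayed within it and 14 moved by more. The reversed difference was that of SS1 in UBP13oe against WT, at -0.009 on the log2 scale rescaled beside 0.16. The difference of SEX1, whose groups overlap there, was -0.15 rescaled and 0.02 as deposited. The factors ranged from 0.930 to 1.07. Of 1263 alternative values of tested genes, 1201 kept their call or their lack of one, 54 lost the call and 8 gained it. No called gene among those followed changed direction, and direction was not compared where no call was made.

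Replicate numbers gave no pairing, as deviations of same-numbered libraries correlated at -0.088 to 0.146 between genotypes and only 2 numbers exist. With the replicate number as a block, called genes numbered 19 in CRY2oe, 22 in cry2-1, 33 in those labelled ubp12ubp13 and 20 in UBP13oe against WT, 27 between CRY2oe and cry2-1, and 25 between those labelled ubp12ubp13 and UBP13oe. Among the tested genes, the block ended 1 call, SUVH4 in cry2-1 (limma adjusted p = 0.0573). The WT level of QQS stands on an estimated 9 fragments, which limits its ratios to WT.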
